A study of Mus musculus with 13 samples.

Results

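Long terminal repeats (LTRs) flank the coding region of endogenous retroviruses and related retrotransposons, and their RNA was measured here by subfamily in mouse embryonic stem (ES) cells. The subfamilies described are those in the LTR class of the repeat table that are not internal regions. Names that start with IAP, RLTRETN, RLTR1B, RLTR4_, RLTR6_ or MuLV, and the name MT2_Mm, were left out. The choice took 514 of the 683 LTR subfamilies and of the 1098 transposon subfamilies (LTR, LINE, SINE and DNA) in a table of 1553 repeats. None was chosen by its level.

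The study asked whether O-GlcNAc, a sugar that OGT adds to nuclear proteins and OGA removes, takes part in the repression of methylated retrotransposon promoters. RNA of 4 ES cell populations was counted on repeats, in 1 library each. In the dCas9-OGA library, AinV15 ES cells carried a doxycycline-inducible cassette for catalytically inactive Cas9 fused to a bacterial O-GlcNAcase, with 4 sgRNAs against the U3 promoter region of IAP elements, and were induced for 48 h with 1 µg/mL doxycycline. In the dCas9-OGA-D242A library the same line carried the fusion with the D242A substitution, which inactivates the O-GlcNAcase. The WT library came from untreated wild-type ES cells, given as AinV15 in the labels of the WT samples, and the Dnmt1-/- library from untreated cells of a line with the null c allele of Dnmt1, the maintenance DNA methyltransferase. All were grown in serum with leukemia inhibitory factor on gelatin. Which of the 3 WT and 3 Dnmt1-/- replicates, if any, gave the repeat counts is not stated, and the Dnmt1-/- cells are a separate line, so line and genotype cannot be told apart. No uninduced or guide-free library of the cassette-bearing cells was analysed here. The sgRNAs were directed at IAP elements, so the subfamilies described here are not the intended targets.

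Each condition had 1 library, so differences could not be set against the spread between replicates and none was tested. Counts were divided by the gene counts of the library, which came to 25097983 for WT, 18693531 for Dnmt1-/-, and 24955180 and 24828078 for the active and the substituted fusion, and are given for each 1000000 gene counts (cpm). Folds are ratios of cpm with exact 95% intervals that cover counting error only, and log2 ratios were taken on cpm plus 0.5. A subfamily was called when its log2 scale ratio reached 2-fold and it had at least 100 counts over the 4 libraries.

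All 10 ES cell markers examined were detected in every library, with summed levels from 4068 to 6009 cpm, highest in dCas9-OGA. Single markers differed more: Tfcp2l1 stood at 925 cpm in dCas9-OGA and at 187, 199 and 130 cpm in the dCas9-OGA-D242A, WT and Dnmt1-/- libraries, and Nanog at 386, 186, 317 and 316 cpm in the same order. Dnmt1 stood at 62.9 cpm in the Dnmt1-/- library and between 376 and 546 cpm in the others. The WT library stood apart in 15 genes of the 2-cell-like state, a rare ES cell state that resembles the early embryo: their summed level was 78.5 cpm in WT and from 0.80 to 3.62 cpm in the other libraries, and all 15 were highest in WT. The WT library also had the highest summed level of 6 primitive endoderm genes, at 46.2 cpm against 15.5 to 28.7 cpm, while 7 fibroblast genes summed to between 30.4 and 60.7 cpm. The 4 Y-linked genes examined (Ddx3y, Eif2s3y, Kdm5d and Uty) summed to 3.25 cpm in dCas9-OGA and 7.41 cpm in WT, but to 128 cpm in dCas9-OGA-D242A and 143 cpm in Dnmt1-/-. The part of these differences in the results that follow was not tested unless values are given.

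An intact LTR holds the promoter and the polyadenylation signal of its element. Recombination between both LTRs of a copy leaves a solitary LTR that can still act as a promoter or an enhancer for nearby sequence. RLTR and RMER subfamilies are LTRs of rodent endogenous retroviruses, and ERVB names mark betaretrovirus-like elements. ORR1, MT and MLT1 subfamilies are LTRs of the mammalian apparent LTR retrotransposons (MaLR), old non-autonomous relatives of the ERVL class. MT2 and MLT2 subfamilies belong to the ERVL elements themselves, whose youngest mouse member, MERVL, marks the 2-cell embryo. LTR and MER names, apart from the LTRIS names, cover mainly older mammalian elements. Some members of the RLTR9 and RLTR13 families are known as enhancer sequences in mouse ES cells.

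Together the 514 subfamilies took 134185 counts in dCas9-OGA, 96987 in dCas9-OGA-D242A, 84647 in WT and 76418 in Dnmt1-/-. This was 5377, 3906, 3373 and 4088 cpm in the same order. As a share of all transposon counts the level was 12.8%, 14.0%, 13.6% and 14.5%. As a share of LTR counts it was 24.5% in dCas9-OGA, where counts on other LTR sequence were highest, and 38.4%, 31.5% and 39.6% in the other libraries. In all, 440 subfamilies had a count in every library and 22 had none in any. The minimum of 100 counts was passed by 303 subfamilies, of which 260 had at least 25 counts in each library. The 211 that did not pass were 89 LTR, 53 RLTR, 37 MER, 7 RMER and 3 MLT names and 22 other names, and they are not described further by ratio. Just under the minimum were LTR31 with 99 counts, RLTR26 and RLTR9F with 98 and MER76 with 97, and just past it RLTR13B4 and RLTR30D_MM with 100 each. In 4 subfamilies that passed, RLTR13G, ERVB4_1C-LTR_Mm, ERVB4_2-LTR_MM and RLTR31B_Mm, a single library gave over 50% of the counts.

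The subfamilies with the largest mean levels were MTD, RLTR13G, ERVB7_1-LTR_MM, MTA_Mm, MTC, RMER15, ORR1A2, ERVB4_1C-LTR_Mm, ORR1D1 and ORR1B1. These 10 gave 36.2% of the counts of all 514 in dCas9-OGA and from 27.5% to 29.2% in the other libraries. The mean includes dCas9-OGA, and ERVB4_1C-LTR_Mm is among the 10 only through that library. The 10 with the largest mean over the other 3 libraries, in which ORR1F takes its place, gave 34.5% in dCas9-OGA and from 28.1% to 29.5% in the others, a choice made after the values were seen. MTD, a MaLR LTR, had 6824 counts in dCas9-OGA, 5589 in dCas9-OGA-D242A, 4100 in WT and 3927 in Dnmt1-/-, or 273, 225, 163 and 210 cpm. These levels are not per length or per copy, so the order between subfamilies says nothing about single copies.

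The comparison of dCas9-OGA with dCas9-OGA-D242A sets 1 library with the active fusion against 1 with the substituted fusion. The Y-linked genes summed to 3.25 and 128 cpm in these libraries, and Tfcp2l1 stood at 925 and 187 cpm. Fusion and cell population thus cannot be told apart. Most LTR subfamilies lay near the shift that all transposon subfamilies shared, and RLTR13G, ERVB4_1C-LTR_Mm, ERVB7_1-LTR_MM and LTRIS2 combined a high level with a difference of about 3-fold on gene totals. On transposon totals the log2 ratios of these 4 were 1.04, 1.02, 0.92 and 0.99, so that ERVB7_1-LTR_MM and LTRIS2 no longer reached 2-fold. That total includes the LTRs and internal regions that were higher in dCas9-OGA. On DNA transposon totals the 4 ratios were 1.34, 1.32, 1.22 and 1.29. Relative to the median transposon subfamily they were 1.33, 1.30, 1.21 and 1.27, so that all 4 passed 2-fold on both. The median of all 645 transposon subfamilies past the minimum was 0.30 higher in dCas9-OGA on the log2 scale, and the median of the 303 LTR subfamilies was 0.26 higher. Of the 303, 11 (3.63%) reached 2-fold in the direction of dCas9-OGA, against 4.34% of all 645, and 1 (0.33%) was at least 2-fold lower, against 0.31%. Taken relative to the median subfamily, 6 (1.98%) were higher, against 2.95% of all 645, and 2 (0.66%) lower, against 0.93%. These shares are near or under those of all transposon subfamilies. The 28 transposon subfamilies called higher were these 11, 14 internal LTR regions and 3 LTRs left out by name, with 0 of the 236 LINE, SINE and DNA subfamilies. The interval of every called fold lay to the same side of 1, which the 2-fold rule and the minimum made likely in advance.

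**Figure D1:**
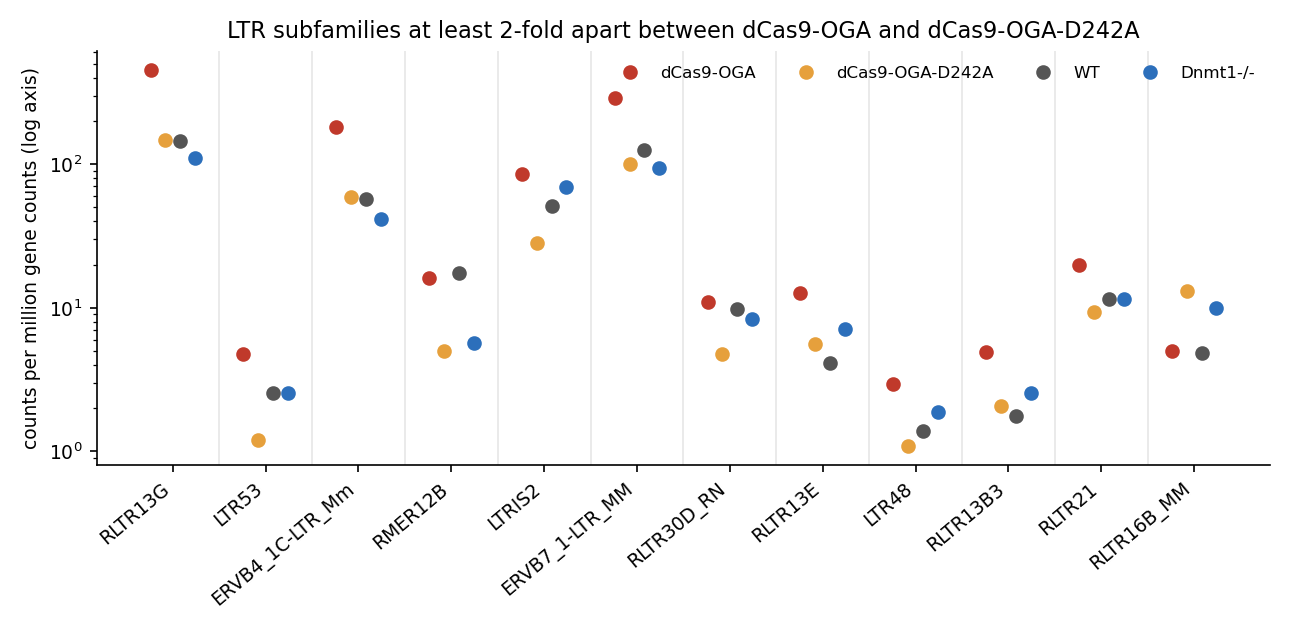
Level in cpm (log axis) of the 11 LTR subfamilies at least 2-fold higher and the 1 at least 2-fold lower with dCas9-OGA than with dCas9-OGA-D242A, with 1 point per library. RLTR13G, ERVB4_1C-LTR_Mm and ERVB7_1-LTR_MM were highest in dCas9-OGA with the other 3 libraries well below it, whereas RMER12B was as high in WT as in dCas9-OGA.

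RLTR13G, an LTR of a rodent endogenous retrovirus, had the largest log2 ratio of the 303. It had 11352 counts in dCas9-OGA, 3633 in dCas9-OGA-D242A, 3621 in WT and 2056 in Dnmt1-/-, or 455, 146, 144 and 110 cpm. The dCas9-OGA library was far above the others, of which dCas9-OGA-D242A and WT lay close together and Dnmt1-/- lay lower. The fold was 3.11 (2.99 to 3.23) against dCas9-OGA-D242A and 3.15 (3.04 to 3.27) against WT.

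ERVB4_1C-LTR_Mm, the LTR of a betaretrovirus-like element, had the same shape at a lower level. Its cpm were 181 in dCas9-OGA, 59.1 in dCas9-OGA-D242A, 57.3 in WT and 41.3 in Dnmt1-/-. Its fold was 3.06 (2.88 to 3.25) against dCas9-OGA-D242A. ERVB7_1-LTR_MM, another betaretrovirus-like LTR, stood at 288, 101, 125 and 93.8 cpm in the same order, with a fold of 2.85 (2.73 to 2.99) against dCas9-OGA-D242A and 2.3 (2.21 to 2.4) against WT.

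RLTR13G, ERVB4_1C-LTR_Mm and ERVB7_1-LTR_MM had the largest gains in cpm among the called subfamilies. They gave 617 of the 1471 cpm by which the 514 subfamilies together were higher with dCas9-OGA than with dCas9-OGA-D242A, or 42.0%. The summed fold of all 514 was 1.38, and 1.24 without these 3.

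The levels of these 3 LTRs were set beside 3 internal regions that were called higher in the same comparison, a choice made after the values were seen. For each 100 counts on MMETn-int, an internal region of the early transposon (ETn) group, RLTR13G had 5.09 counts in dCas9-OGA, 5.04 in dCas9-OGA-D242A, 5.44 in WT and 5.06 in Dnmt1-/-. ERVB4_1C-LTR_Mm had 2.02, 2.03, 2.16 and 1.90 for each 100 counts on MMETn-int. Both were thus in nearly the same ratio to MMETn-int in all 4 libraries, with the highest ratio 1.08 times the lowest for RLTR13G and 1.14 times for ERVB4_1C-LTR_Mm. ERVB7_1-LTR_MM varied more, from 3.22 in dCas9-OGA to 4.71 in WT, or 1.46 times. Against ETnERV-int, a related internal region, the highest ratio was 1.15 times the lowest for RLTR13G, 1.22 times for ERVB4_1C-LTR_Mm and 1.35 times for ERVB7_1-LTR_MM. Against IAPEz-int, the internal region of the elements that the sgRNAs were directed at, RLTR13G had 24.6, 30.9, 34.4 and 16.9 counts for each 100, so that the highest ratio was 2.03 times the lowest. For ERVB4_1C-LTR_Mm and ERVB7_1-LTR_MM it was 2.15 and 2.06 times. The Dnmt1-/- values against IAPEz-int and ETnERV-int rest on a count of 12152 that both internal regions have in that library, so that 1 of them may be an error in the deposited table. Without Dnmt1-/-, a choice made after the values were seen, the highest ratio to IAPEz-int was 1.40 times the lowest for RLTR13G, 1.40 times for ERVB4_1C-LTR_Mm and 1.91 times for ERVB7_1-LTR_MM. The spreads against ETnERV-int were then 1.06, 1.05 and 1.35 times in the same order. Reads of related subfamilies may be placed on each other, which was not tested.

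LTRIS2 was also called higher in dCas9-OGA, but its other libraries differed among themselves. It had 2130 counts in dCas9-OGA, 704 in dCas9-OGA-D242A, 1288 in WT and 1285 in Dnmt1-/-, or 85.4, 28.4, 51.3 and 68.7 cpm. The fold was 3.01 (2.76 to 3.28) against dCas9-OGA-D242A and 1.66 (1.55 to 1.78) against WT, and dCas9-OGA-D242A was the lowest library, at 0.553 (0.503 to 0.606) of WT. RLTR1B-int, chosen for comparison after its values were seen, stood at 556, 118, 310 and 441 cpm, also lowest in dCas9-OGA-D242A. LTRIS2 had 15.3, 24.1, 16.5 and 15.6 counts for each 100 on RLTR1B-int, and 37.0, 39.3, 46.7 and 75.2 for each 100 on RLTR4_MM-int, an internal region chosen in the same way. The ratio to RLTR1B-int was nearly level apart from dCas9-OGA-D242A, and the ratio to RLTR4_MM-int was nearly level between the induced libraries and highest in Dnmt1-/-. The highest ratio was 1.57 times the lowest for RLTR1B-int, 2.03 times for RLTR4_MM-int and 2.65 times for IAPEz-int.

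RMER12B, an LTR of a rodent endogenous retrovirus, had 403 counts in dCas9-OGA, 125 in dCas9-OGA-D242A, 440 in WT and 106 in Dnmt1-/-. Its cpm of 16.1, 5.03, 17.5 and 5.67 put dCas9-OGA and WT on a level, at a fold of 0.921 (0.803 to 1.06), and the other libraries at about the same lower level. The fold against dCas9-OGA-D242A was 3.21 (2.62 to 3.95). RLTR16B_MM, the only subfamily called lower in dCas9-OGA, split the libraries in the same way with the opposite sign. It had 125, 325, 121 and 185 counts, or 5.01, 13.1, 4.82 and 9.90 cpm, a fold of 0.383 (0.309 to 0.472) against dCas9-OGA-D242A and 1.04 (0.803 to 1.35) against WT. The Y-linked genes also separated dCas9-OGA and WT from dCas9-OGA-D242A and Dnmt1-/- (3.25 and 7.41 against 128 and 143 cpm), and whether this had a part in the level of RMER12B or RLTR16B_MM was not tested.

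The remaining 6 called subfamilies had from 170 to 1235 counts in all. RLTR21 stood at 19.9 cpm in dCas9-OGA, 9.38 in dCas9-OGA-D242A, 11.6 in WT and 11.4 in Dnmt1-/-, a fold of 2.12 (1.81 to 2.49) against dCas9-OGA-D242A. RLTR13E stood at 12.6, 5.56, 4.14 and 7.11 cpm, with a fold of 2.26 (1.85 to 2.79) against dCas9-OGA-D242A and 3.04 (2.43 to 3.83) against WT. RLTR13B3 stood at 4.93, 2.05, 1.75 and 2.57 cpm, with a fold of 2.40 (1.72 to 3.39). In these 3 the dCas9-OGA library was above all others. LTR53 (4.73, 1.21, 2.55 and 2.57 cpm) and LTR48 (2.93, 1.09, 1.39 and 1.87 cpm) were also highest in dCas9-OGA, at folds of 3.91 (2.60 to 6.05) and 2.69 (1.71 to 4.35) against dCas9-OGA-D242A, on 30 and 27 counts in the latter. RLTR30D_RN (11, 4.79, 9.80 and 8.40 cpm) differed from WT by a fold of 1.12 (0.940 to 1.34), so that its ratio of 2.29 (1.84 to 2.87) came with a low dCas9-OGA-D242A level.

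**Figure D2:**
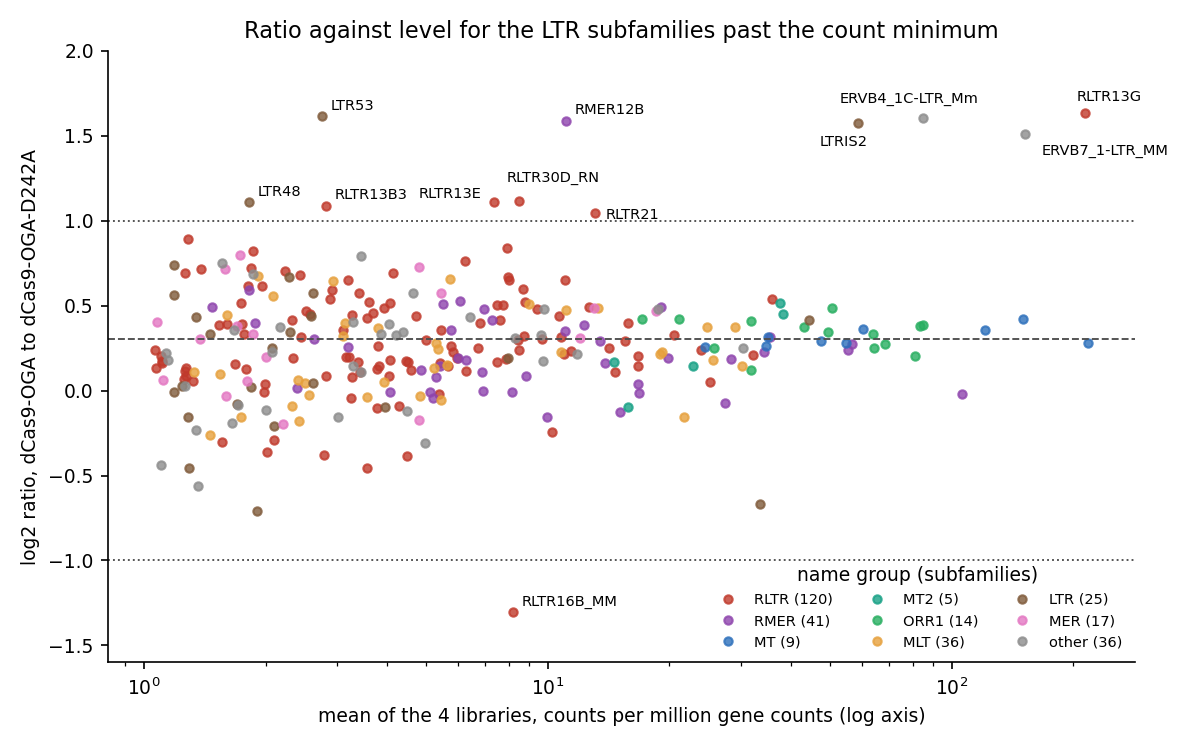
log2 ratio of dCas9-OGA to dCas9-OGA-D242A (vertical axis) against the mean cpm of the 4 libraries (log axis) for the 303 LTR subfamilies past the minimum, coloured by name group. The dashed line marks the median transposon subfamily at 0.30 and the dotted lines 2-fold, and the called subfamilies are named.

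Within the RLTR13 family, 18 of 23 members passed the minimum and RLTR13G stood well above the rest in level. The log2 ratio of dCas9-OGA to dCas9-OGA-D242A ran from -0.46 to 1.63, with 15 higher, 3 lower and 3 called. Without RLTR13G the median was 0.31, next to the median subfamily at 0.30. RLTR13D3A1 (16.3, 10.2, 8.85 and 8.67 cpm) and RLTR13B1 (9.70, 5.92, 6.77 and 9.47 cpm) were 1.60-fold (1.36 to 1.88) and 1.64-fold (1.33 to 2.02) higher. RLTR13B2 and RLTR13D3 were lower, at 0.697 (0.512 to 0.946) and 0.742 (0.553 to 0.991). The LTRs of 1 family thus went in both directions.

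Among the name groups, the median log2 ratio of dCas9-OGA to dCas9-OGA-D242A lay between 0.17 and 0.36, around the 0.30 of all transposon subfamilies. It was 0.28 for 120 RLTR, 0.19 for 41 RMER, 0.29 for 9 MT, 0.17 for 5 MT2, 0.36 for 14 ORR1, 0.20 for 36 MLT, 0.25 for 25 LTR and 0.33 for 17 MER subfamilies. The called subfamilies were 6 RLTR (5 higher and 1 lower), 3 LTR, 1 RMER and 2 ERVB names, and none of the ORR1, MT, MT2, MLT or MER subfamilies. Of the 9 ERVB names that passed the minimum, 6 were higher and 3 lower, with a median of 0.15. All 14 ORR1 and all 9 MT ratios were above 0, between 0.12 and 0.48 and between 0.25 and 0.42, but only 9 and 4 of them were above the median subfamily.

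**Figure D3:**
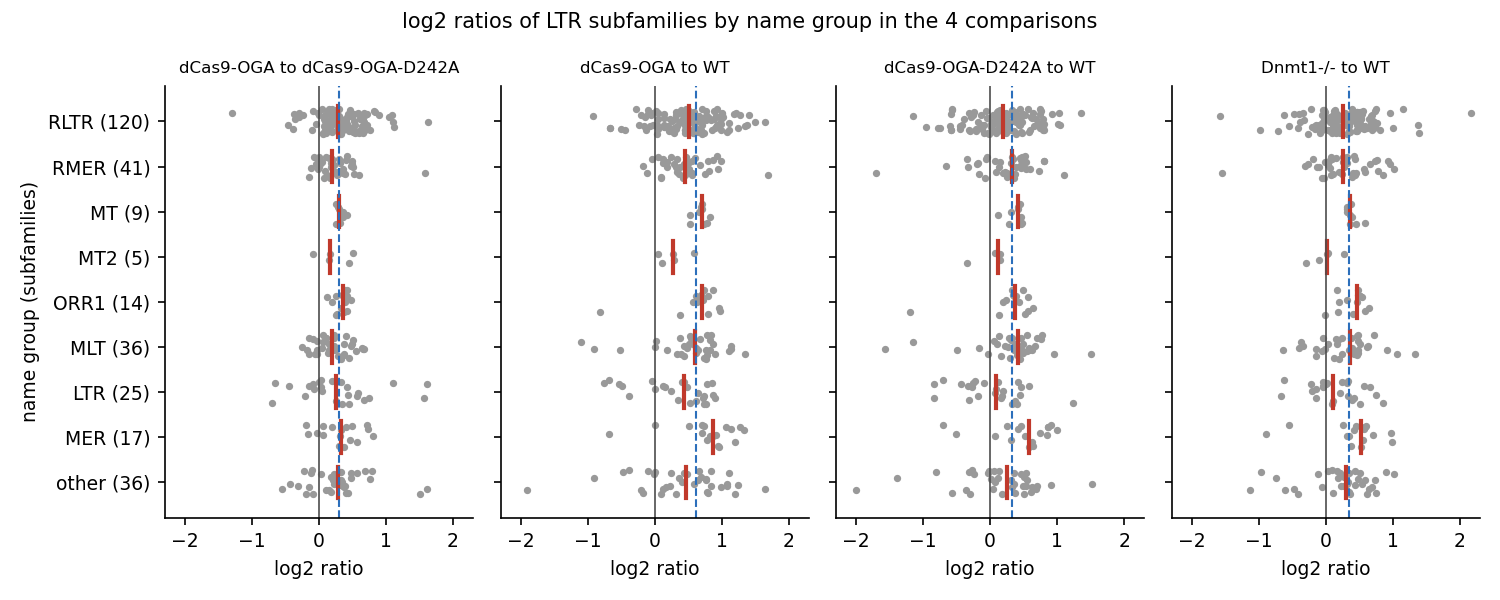
log2 ratios of the 303 LTR subfamilies (points, spread vertically for legibility) by name group in 4 comparisons, with the median of the group (red bar), 0 (solid line) and the median of all 645 transposon subfamilies (dashed line). The group median farthest from the dashed line was that of MT2 in dCas9-OGA to WT, at -0.34 from it, and in the 3 comparisons with WT the MER median lay above the line and the MT2 median below it.

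Against WT the shared shift was larger. The median of all transposon subfamilies was 0.62 higher with dCas9-OGA and 0.33 higher with dCas9-OGA-D242A, and the medians of the 303 LTR subfamilies were 0.54 and 0.28 higher. The comparisons share the WT library, and the dCas9-OGA library also enters the comparison above. Of the 303, 199 were lowest in WT and 199 were highest in dCas9-OGA, which is 65.7% in both cases, against 68.7% and 70.5% of all 645.

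In dCas9-OGA, 31 of the 303 (10.2%) were at least 2-fold higher than in WT, against 15.7% of all 645, and 2 (0.66%) were at least 2-fold lower, against 0.775%. Relative to the median subfamily, 3 (0.99%) were higher, against 2.02%, and 19 (6.27%) lower, against 4.50%. The 3 were RLTR13G, ERVB4_1C-LTR_Mm and RMER16A3. RMER16A3 had 79 counts in dCas9-OGA, 48 in dCas9-OGA-D242A, 16 in WT and 29 in Dnmt1-/-, and its fold against WT was 4.97 (2.88 to 9.11) with dCas9-OGA and 3.03 (1.69 to 5.72) with dCas9-OGA-D242A. WT was thus the low library for RMER16A3. Another 3 came from the RLTR31 family: RLTR31B_Mm at 3.96-fold (2.26 to 7.35), RLTR31_Mur at 3.23-fold (2.11 to 5.08) and RLTR31D_MM at 2.22-fold (1.90 to 2.59). RLTR31D_MM had the most counts of these, 529, 396, 240 and 311, with WT again lowest. By name group, 15 of the 31 were RLTR, 6 other names, 5 MER, 4 MLT and 1 RMER, and none ORR1, MT, MT2 or LTR.

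In dCas9-OGA-D242A, 9 of the 303 (2.97%) were at least 2-fold higher than in WT, against 3.88% of all 645, and 7 (2.31%) at least 2-fold lower, against 2.17%. Relative to the median subfamily the counts were 3 (0.99%) higher, against 1.24%, and 15 (4.95%) lower, against 4.34%. MLT1G1, a MaLR LTR, was the best covered of the 9. It had 654 counts in dCas9-OGA, 727 in dCas9-OGA-D242A, 251 in WT and 403 in Dnmt1-/-, or 26.2, 29.3, 10.0 and 21.6 cpm. WT was the low library, at folds of 2.62 (2.26 to 3.04), 2.93 (2.53 to 3.39) and 2.16 (1.84 to 2.53) for the other 3. Of the sparser ones, MLTR31A_MM had 33, 49, 9 and 14 counts and a fold of 5.50 (2.68 to 12.7) in dCas9-OGA-D242A, and LTR88c had 40, 73, 24 and 40 counts and a fold of 3.07 (1.92 to 5.10). RLTR20A3_MM had 99, 102, 45 and 59 counts and a fold of 2.29 (1.60 to 3.33).

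A small set of LTRs went against the shift and was highest in WT. ERVB4_2-LTR_MM, the LTR of a betaretrovirus-like element, had 41 counts in dCas9-OGA, 37 in dCas9-OGA-D242A, 188 in WT and 59 in Dnmt1-/-. Its folds against WT were 0.219 (0.152 to 0.309), 0.199 (0.136 to 0.284) and 0.421 (0.309 to 0.567). The WT level of 7.49 cpm was thus above all others, which lay from 1.49 to 3.16 cpm. RLTR6B_Mm had 10.4, 8.74, 20.04 and 6.37 cpm, MURVY-LTR 8.21, 5.76, 15.9 and 9.25 cpm, MLT1E 2.56, 2.46, 6.06 and 4.60 cpm and MLT1J2 4.29, 2.54, 8.49 and 7.6 cpm, in each case highest in WT. In 27 of the 303 subfamilies (8.91%) WT was the highest library, against 7.13% of all 645.

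ORR1A0, the LTR of a MaLR element, was the exception among the ORR1 names. It had 775 counts in dCas9-OGA, 593 in dCas9-OGA-D242A, 1385 in WT and 1171 in Dnmt1-/-, or 31.1, 23.9, 55.2 and 62.6 cpm. Both induced libraries were low, at 0.563 (0.515 to 0.615) and 0.433 (0.392 to 0.477) of WT, and Dnmt1-/- was at 1.14 (1.05 to 1.23). The other 13 ORR1 subfamilies were all higher than WT in both induced libraries, and 10 and 9 of them were above the median subfamily.

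The LTRs closest in name to that of MERVL did not share its level in the WT library. MT2_Mm, the LTR of MERVL, had 935 counts in dCas9-OGA, 815 in dCas9-OGA-D242A, 5268 in WT and 588 in Dnmt1-/-, and MERVL-int had 2789, 3788, 31657 and 2422. MT2A had 1231, 854, 822 and 629 counts and MT2B1 1118, 812, 1043 and 630. Across the 5 MT2 subfamilies the log2 ratio to WT ran from 0.05 to 0.58 in dCas9-OGA, from -0.34 to 0.15 in dCas9-OGA-D242A and from -0.30 to 0.28 in Dnmt1-/-. MT2B1 was the lowest of the 5 in both of the latter, at 0.787 (0.717 to 0.863) and 0.811 (0.733 to 0.896) of WT. All 15 of these ratios were below the median subfamily. The medians of the MT2 group were 0.28, 0.11 and 0.03, against 0.62, 0.33 and 0.34 for all transposon subfamilies.

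**Figure D4:**
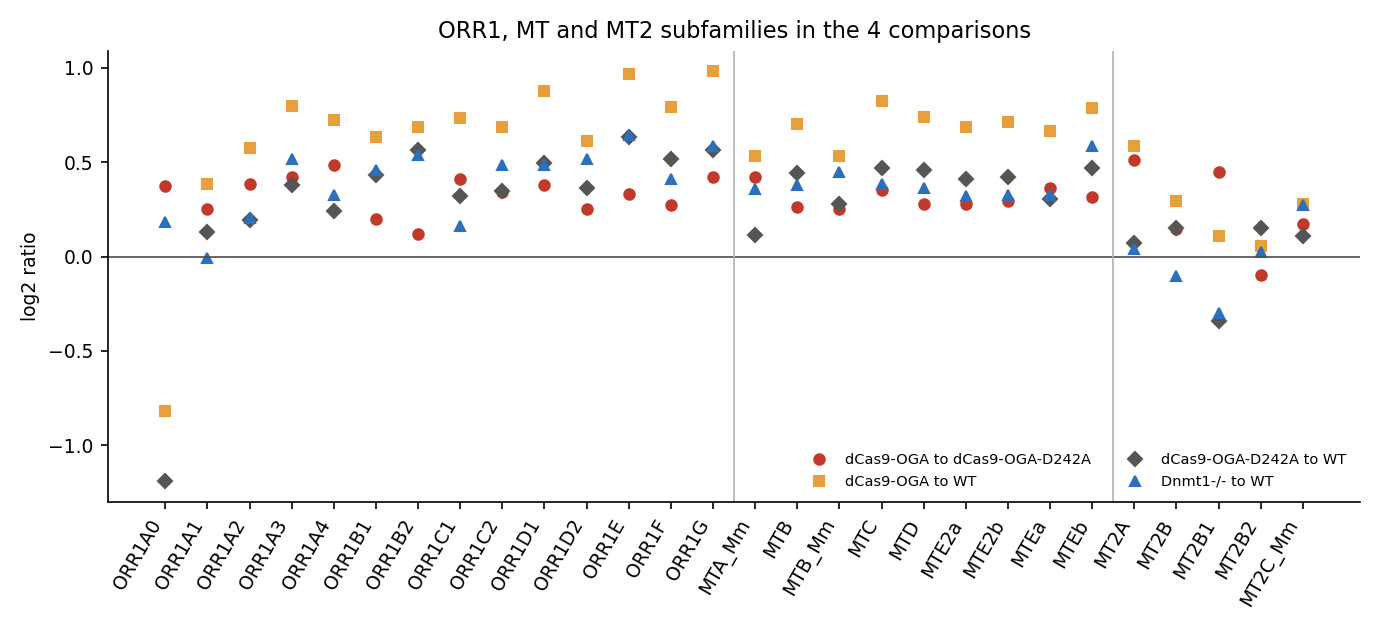
log2 ratio of 14 ORR1, 9 MT and 5 MT2 subfamilies in 4 comparisons, with 1 point per subfamily and comparison and vertical lines between the name groups. ORR1A0 lies at -0.82 and -1.19 in the comparisons of the induced libraries with WT, and the other ORR1 and all MT subfamilies lie above 0 in them. The MT2 medians are nearer 0 than those of ORR1 and MT in these comparisons, and the MT2 subfamilies farthest from 0 are MT2A at 0.58 in dCas9-OGA to WT and MT2B1 at -0.34 in dCas9-OGA-D242A to WT.

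In the lettered MaLR series later letters name older subfamilies. The ORR1 LTRs other than ORR1A0 were described in 3 sets of neighbouring letters, which were formed after the values were seen. Against WT, the log2 ratio in dCas9-OGA-D242A was 0.13 to 0.38 for ORR1A1 to ORR1A4, 0.32 to 0.57 for the 6 ORR1B to ORR1D subfamilies and 0.52 to 0.63 for ORR1E, ORR1F and ORR1G. In dCas9-OGA the ranges were 0.39 to 0.80, 0.61 to 0.88 and 0.79 to 0.98, and in Dnmt1-/- they were -0.01 to 0.52, 0.16 to 0.54 and 0.41 to 0.64. The ranges of neighbouring sets overlapped in every case, and all 3 comparisons share the WT library. Single letters were not in order. In dCas9-OGA-D242A, ORR1B1 and ORR1B2 were at 0.43 and 0.57, above ORR1C1 and ORR1C2 at 0.32 and 0.35, and ORR1B2 was also above ORR1D1 and ORR1D2 at 0.50 and 0.36. In Dnmt1-/-, ORR1F at 0.41 was below the 4 ORR1B and ORR1D subfamilies, which lay from 0.46 to 0.54. In the ratio between both induced libraries the medians of the 3 sets were 0.40, 0.30 and 0.33. The order was not tested.

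Among the MT LTRs, MTA_Mm, the youngest, had 4524 counts in dCas9-OGA, 3353 in dCas9-OGA-D242A, 3136 in WT and 2994 in Dnmt1-/-. Its log2 ratio of dCas9-OGA-D242A to WT was 0.11, under the 0.28 to 0.47 of the 8 MTB to MTE subfamilies. In Dnmt1-/- MTA_Mm was at 0.36, within their range of 0.32 to 0.59. MTC had 157, 122, 88.4 and 116 cpm and MTD 273, 225, 163 and 210 cpm, both highest in dCas9-OGA and lowest in WT, with dCas9-OGA-D242A and Dnmt1-/- close together between them.

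The MLT names cover the MLT1 LTRs of MaLR elements and the MLT2 LTRs of ERVL elements, and many had few counts. In the 28 MLT1 subfamilies that passed, 26 were higher than WT with either fusion, with medians of 0.60 and 0.41, and MLT1E and MLT1J2 were lower in both. Of all 645 transposon subfamilies 575 and 497 were higher, and 13 and 17 of the 28 were above the median subfamily, with medians of -0.02 and 0.08 relative to it. In the 8 MLT2 subfamilies the medians were 0.55 and 0.35, and MLT2F (109, 111, 163 and 75 counts) was lower than WT in both. In MLT1A0, with 921, 704, 536 and 553 counts, the folds against WT were within the range of the ORR1 and MT series, at log2 ratios of 0.78, 0.40 and 0.46.

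The Dnmt1-/- library was compared with WT to see which LTRs were higher without maintenance methylation. The median transposon subfamily was 0.34 higher and the median of the 303 LTR subfamilies 0.32 higher. In all, 9 of the 303 (2.97%) were at least 2-fold higher, against 4.03% of all 645, and 3 (0.99%) at least 2-fold lower, against 0.775%. Relative to the median subfamily 3 (0.99%) were higher, against 0.93%, and 9 (2.97%) lower, against 2.17%.

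RLTR10F, an LTR of a rodent endogenous retrovirus, had the largest ratio. It had 111 counts in dCas9-OGA, 112 in dCas9-OGA-D242A, 49 in WT and 197 in Dnmt1-/-, or 4.45, 4.51, 1.95 and 10.54 cpm. Dnmt1-/- was 5.40-fold (3.93 to 7.54) above WT, and both induced libraries were between them, at 2.28-fold (1.61 to 3.26) and 2.31-fold (1.64 to 3.30) of WT. The other 8 RLTR10 subfamilies had log2 ratios of Dnmt1-/- to WT from -0.97 to 0.46. The lowest was RLTR10 itself, with 17.0, 15.3, 23.2 and 11.6 cpm and a fold of 0.498 (0.424 to 0.583).

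RLTR9E was higher in Dnmt1-/- than in each other library. It had 823 counts in dCas9-OGA, 559 in dCas9-OGA-D242A, 603 in WT and 1198 in Dnmt1-/-, or 33.0, 22.5, 24.0 and 64.1 cpm. The fold against WT was 2.67 (2.42 to 2.95) in Dnmt1-/-, 1.37 (1.23 to 1.53) in dCas9-OGA and 0.937 (0.834 to 1.05) in dCas9-OGA-D242A. RLTR9A had 99, 88, 56 and 104 counts and a fold of 2.49 (1.78 to 3.52) in Dnmt1-/-. The family was not uniform: of the 6 RLTR9 subfamilies that passed, 3 were higher and 3 lower in Dnmt1-/- than in WT, and RLTR9A3 was at 0.510 (0.284 to 0.881). A further 7 RLTR9 subfamilies did not pass the minimum.

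RMER15 was the most abundant of the 9. It had 2569 counts in dCas9-OGA, 2588 in dCas9-OGA-D242A, 1799 in WT and 2716 in Dnmt1-/-, or 103, 104, 71.7 and 145 cpm. The induced libraries were equal within counting error, at a fold of 0.988 (0.935 to 1.04), and Dnmt1-/- was 2.03-fold (1.91 to 2.15) above WT. RLTR44E, with 59, 44, 15 and 44 counts, was low in WT only, with folds of 3.96 (2.22 to 7.51), 2.97 (1.62 to 5.74) and 3.94 (2.15 to 7.62). MLT1G3, with 139, 144, 69 and 143 counts, was also lowest in WT, at a fold of 2.78 (2.07 to 3.76) in Dnmt1-/-. BGLII_Mus, with 30, 29, 18 and 37 counts, was at 2.76-fold (1.53 to 5.15), and its intervals against WT in the induced libraries included 1.

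The 3 subfamilies called lower in Dnmt1-/- were RLTR6B_Mm at 0.318 (0.258 to 0.389), RMER12B at 0.323 (0.259 to 0.401) and ERVB4_2-LTR_MM at 0.421 (0.309 to 0.567). RLTR13G, ERVB4_1C-LTR_Mm and ERVB7_1-LTR_MM, the 3 with the largest gains in dCas9-OGA, were lower in Dnmt1-/- than in WT, at 0.762 (0.722 to 0.805), 0.720 (0.659 to 0.787) and 0.751 (0.708 to 0.796). MMETn-int was at 0.82 of WT in the same library. IAPEz-int was at 1.55 of WT there, on the count that 2 internal regions share.

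LTRs and internal regions of the same name could be compared for 69 of the 514 subfamilies, and for 35 of them both passed the minimum, with 34 internal regions because RMER16 and RMER16_Mm share 1. In the comparison of dCas9-OGA with dCas9-OGA-D242A the median log2 ratio was 0.30 for these LTRs and 0.39 for their internal regions, and the internal region was above its LTR in 26 of the 35 pairs. This was so in 19 pairs for dCas9-OGA to WT, in 19 for dCas9-OGA-D242A to WT and in 21 for Dnmt1-/- to WT. The LTR lay within 0.5 of its internal region in 28 of 35 pairs in the 2 comparisons of dCas9-OGA, in 26 for dCas9-OGA-D242A to WT and in 24 for Dnmt1-/- to WT. In 3, 3, 5 and 2 pairs they were at least 1 apart on the log2 scale.

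RMER16, ORR1A0 and MTEb were among the pairs at least 1 apart. RMER16-int had 3050 counts in dCas9-OGA, 887 in dCas9-OGA-D242A, 1562 in WT and 1765 in Dnmt1-/-, a log2 ratio of 1.76 between the induced libraries, whereas RMER16 (71, 55, 74 and 47 counts) was at 0.30 and RMER16_Mm (61, 43, 28 and 42 counts) at 0.40. ORR1A0-int had 1760, 835, 772 and 900 counts and was highest in dCas9-OGA, where ORR1A0 was low, so that LTR and internal region differed by -2.00 in the log2 ratio of dCas9-OGA to WT. MTEb-int had 130, 286, 86 and 162 counts and was highest in dCas9-OGA-D242A, while MTEb (43.2, 34.6, 24.9 and 37.6 cpm) was highest in dCas9-OGA.

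RLTR19 and RLTR45 also parted from their internal regions. RLTR19-int had 8529 counts in dCas9-OGA, 7421 in dCas9-OGA-D242A, 3967 in WT and 4749 in Dnmt1-/-, with log2 ratios to WT of 1.11, 0.92 and 0.68. RLTR19, with 121, 106, 131 and 68 counts, was at -0.10, -0.26 and -0.47 in the same comparisons. RLTR45-int had 1668 counts in WT and 415 in dCas9-OGA-D242A (log2 ratio -1.96), and RLTR45, with 466 and 306 counts, was at -0.57, the widest gap in that comparison at 1.39. In each of these pairs the internal region had the larger difference from WT.

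**Figure D5:**
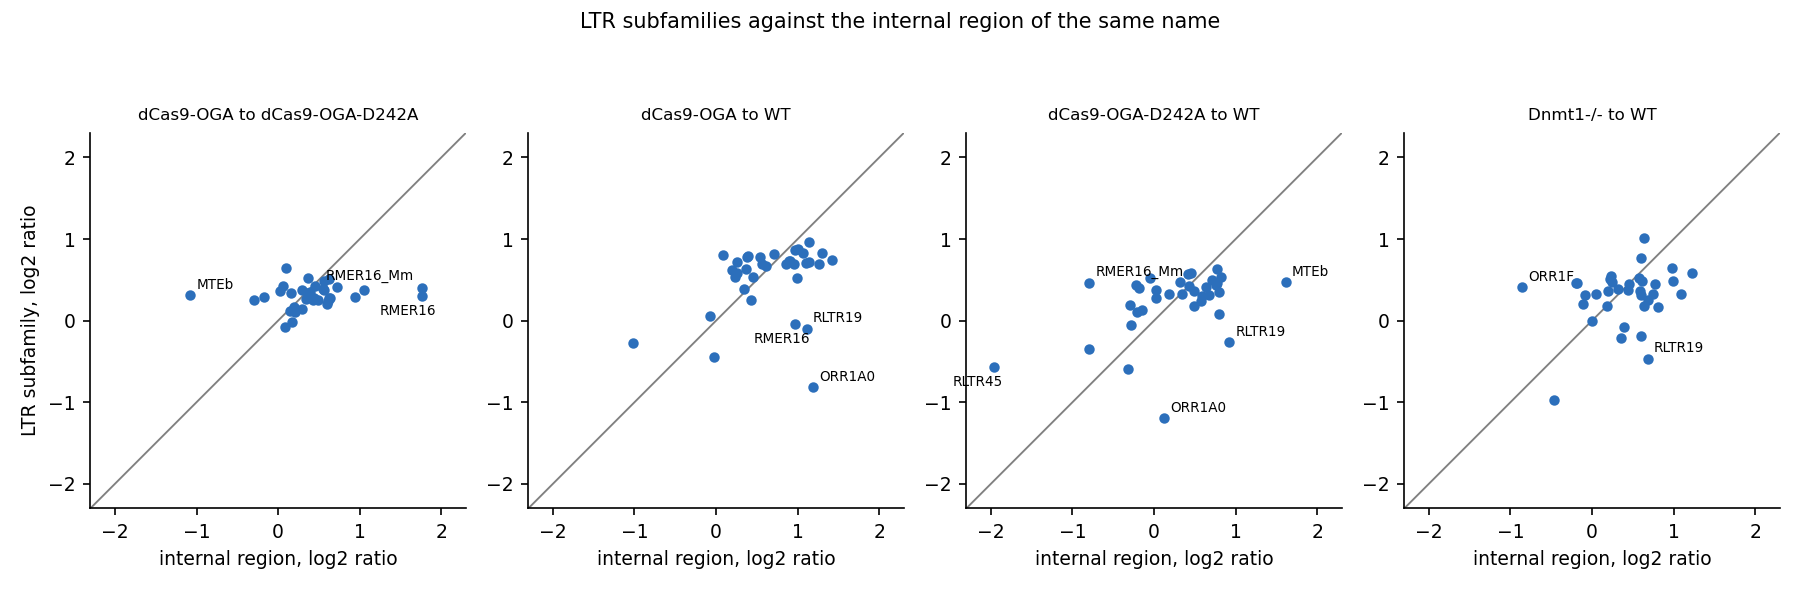
log2 ratio of 35 LTR subfamilies (vertical axis) against the log2 ratio of the internal region of the same name (horizontal axis) in 4 comparisons, with the line of equal ratios, 1 point per pair and names where the 2 differ by at least 1. Most points lie in a cloud around the median shift, and RMER16, ORR1A0, RLTR19, RLTR45, MTEb and ORR1F lie away from the line in 1 or more comparisons.

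The RMER subfamilies lay mostly under the shared shift in both comparisons of dCas9-OGA. Of the 41 that passed, 32 were higher with dCas9-OGA than with dCas9-OGA-D242A, but 13 were above the median subfamily, and RMER12B alone was called. In dCas9-OGA to WT 9 of the 41 were above the median subfamily, and the RMER median was -0.17 relative to it. Among 8 RMER17 subfamilies 1 was above the median subfamily in each of these comparisons. All 5 RLTR11 subfamilies were higher than WT in the other 3 libraries, with medians of 0.54, 0.59 and 0.37. Relative to the median subfamily the medians were -0.08 in dCas9-OGA, with 2 of the 5 above it, 0.26 in dCas9-OGA-D242A and 0.03 in Dnmt1-/-, with 4 of the 5 above it in each. In dCas9-OGA to dCas9-OGA-D242A 1 of the 5 was above the median subfamily, with a median of -0.10 relative to it. RLTR11B (11, 7.61, 4.90 and 6.42 cpm) was 2.24-fold (1.80 to 2.79) higher in dCas9-OGA than in WT. RLTR17 (22.7, 18.0, 16.8 and 24.4 cpm), RLTR17B_Mm, RLTR17D_Mm and RLTR23 were higher than WT in the other 3 libraries by log2 ratios of 0.10 to 0.67. So were 575, 497 and 508 of all 645 in dCas9-OGA, dCas9-OGA-D242A and Dnmt1-/-. Relative to the median subfamily the RLTR17 medians were -0.15, -0.09 and 0.15 in the same order. RLTR23, at 0.38, 0.14 and 0.12, was under the median subfamily in each. RLTR41 was 1.85-fold (1.51 to 2.27) higher with dCas9-OGA than with dCas9-OGA-D242A, at 11.2 and 6.04 cpm. RLTR45 was below WT in all 3 other libraries, at 15.2, 12.3 and 15.9 against 18.6 cpm.

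The LTRIS names lay under the shared shift for dCas9-OGA-D242A to WT. All 5 LTRIS subfamilies that passed were lower than WT there, at log2 ratios from -0.84 to -0.23, and LTRIS_Mus had 37.7 against 45.4 cpm, a fold of 0.831 (0.761 to 0.907). All 6 BGLII subfamilies that passed were higher, at 0.01 to 0.68, as were 497 of all 645, and 3 of the 6 were above the median subfamily. BGLII had 8.70 against 6.89 cpm, a fold of 1.26 (1.03 to 1.55). In Dnmt1-/- BGLII was at 11.8 cpm, 1.71-fold (1.39 to 2.1) above WT, and LTRIS_Mus at 44.1 cpm, with a fold of 0.970 (0.886 to 1.06). The MER LTRs had the largest group median in dCas9-OGA to WT, at 0.88, with 16 of 17 higher and 14 above the median subfamily. MER34A1 (187, 121, 75 and 120 counts) was 2-fold or more above WT in dCas9-OGA, at a log2 ratio of 1.20, and MER89 (103, 117, 173 and 65 counts) was the 1 that was lower.

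LTR50 was not called but was lower in dCas9-OGA alone, and is named after its values were seen. It had 552 counts in dCas9-OGA, 878 in dCas9-OGA-D242A, 951 in WT and 720 in Dnmt1-/-, or 22.1, 35.4, 37.9 and 38.5 cpm. The fold was 0.625 (0.561 to 0.697) against dCas9-OGA-D242A and 0.584 (0.525 to 0.649) against WT, while the other 3 libraries were close together.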

How the data were processed

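RNA-seq of mouse ES cells was used. Per the study's methods the authors mapped single-end reads to mm10 with Bowtie2 2.2.2, removed reads on rRNA and mRNA (Ensembl genes) and counted reads on the RepeatMasker track with featureCounts 1.5.0. The deposited values are whole counts per gene and per subfamily, without normalization. A read that maps to several copies is placed on a single copy, so reads may be divided among related subfamilies. The sources name different library kits, and strand in counting is not given in the sources used here. A row of rRNA, which took from 32.2% to 48.2% of the repeat counts, was left out of totals.

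Counts were scaled on total gene counts, and ratios were taken on log2(cpm + 0.5) among subfamilies with at least 100 counts over the 4 libraries. With 1 library per condition nothing was tested. Intervals are exact (Clopper-Pearson, 95%). Name groups follow the start of the name, with MLTR and MERV names among the others, and 3 subfamilies of uncertain LTR class were kept. The members and lists were chosen with earlier results of these data known. Named subfamilies were the 10 with the largest mean level, per comparison the 8 with the largest and the 8 with the smallest ratio among those called, lettered series, LTRs with an internal region of the same name, and the RLTR9, 10, 11, 13, 17, 23, 41 and 45, RMER, BGLII and LTRIS names. Others are named from the counts of calls, after their values were seen. The alternatives were TMM factors from edgeR 4.0.16, transposon and DNA transposon totals, the median subfamily, other minima and a larger pseudocount. The calls and intervals were tested on simulated counts with counting error only and with true folds away from 2-fold. Such counts hold no spread between libraries, so they cannot show how the calls behave under it. Work was done in R 4.3.3 and in Python 3.11.15 with SciPy 1.17.1, NumPy 2.4.6, pandas 2.3.3 and matplotlib 3.10.9. The replicate gene files of WT and Dnmt1-/- cells (3 each) and the ChIP-seq data were not used here, and no subfamily sequence is printed.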

Additional observations from a re-analysis of the deposited data

How the results depend on the processing

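The counts of called LTR subfamilies depended on the scaling. For 45 ratios of named subfamilies 294 alternative values were computed, of which none changed sign, 197 moved by no more than the fold lies from the bound of its counting interval and 97 moved by more. The 197 include all values under other minima, which could not move because a minimum does not enter a ratio. Of 56 alternative counts of calls, 22 were within 1.5 times the reported count. The other 34 are given here, higher and then lower, in the order dCas9-OGA to dCas9-OGA-D242A, dCas9-OGA to WT, dCas9-OGA-D242A to WT and Dnmt1-/- to WT. Relative to the median subfamily they were 6 and 2, 3 and 19, 3 and 15, and 3 and 9. On transposon totals they were 4 and 3, 1 and 19, 5 higher, and 5 and 6. On DNA transposon totals they were 6 higher, 1 and 17, 2 and 19, and 2 and 12. With a pseudocount of 5 cpm they were 5 and 0, 4 and 0, 1 and 2, and 2 higher. With a minimum of 500 counts, which leaves fewer subfamilies, they were 11 and 0 for dCas9-OGA to WT, 2 higher for dCas9-OGA-D242A to WT and 4 higher for Dnmt1-/- to WT. With TMM factors of the genes 5 were lower in Dnmt1-/-. With a minimum of 20 counts none of the counts moved by over 1.5 times. Scaling on the median subfamily sets the shared shift to 0 by construction, which takes calls of higher subfamilies away and adds calls of lower ones, and a larger pseudocount shrinks the ratios of low subfamilies. For the other settings the cause was not tested. No paired analysis was possible because each condition has a single library among the repeat counts, and none could be left out. Subfamilies near 100 counts carry the widest intervals.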

Other observations

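MURVY-LTR belongs to an endogenous retrovirus named for its copies on the Y chromosome. It had 205 counts in dCas9-OGA, 143 in dCas9-OGA-D242A, 399 in WT and 173 in Dnmt1-/-, and its internal region, MURVY-int, had 21, 10, 14 and 68. The 4 Y-linked genes summed to 81, 3167, 186 and 2675 counts in the same libraries. The LTR was highest in WT, the internal region in Dnmt1-/- and the Y-linked genes were high in dCas9-OGA-D242A and Dnmt1-/-.

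RLTR6B_Mm and MMERGLN_LTR were opposite in the Dnmt1-/- library. RLTR6B_Mm had 259, 217, 503 and 119 counts in dCas9-OGA, dCas9-OGA-D242A, WT and Dnmt1-/-, and was lowest in Dnmt1-/- per gene count. MMERGLN_LTR had 175, 138, 176 and 253 counts, or 7.01, 5.56, 7.01 and 13.5 cpm, and was highest there.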
